A study of Mus musculus with 8 samples.

Results

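The genes described here are 10 regulators of the actin cytoskeleton and of cell migration that are best known from blood cells: Myo1f, Lcp1, Coro1a, Was, Nckap1l, Fmnl1, Hcls1, Dock2, Arhgap30 and Adcy7. They were taken by symbol, each symbol matched 1 gene, and all 10 were found among the 55401 genes of the count table and the 19535 genes that passed the filter on low counts. The symbols were chosen by their fold changes in DDC against control liver, known from earlier results on these libraries, together with their role in blood cells. Their values in the 2 groups are therefore a description, without a test. In all 10 genes every DDC library lay above every control library, and their mean levels stood 2.22-fold (Lcp1) to 8.23-fold (Myo1f) higher in DDC liver. The median log2 fold change was 2.27, beside 0.07 over all genes tested. Groups separated in that direction for 26.9% of all genes tested, and nothing is read from the comparison because the choice of genes used it.

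A leukocyte crawls by pushing out a branched actin network at its front. Surface receptors activate the GTPase Rac through exchange factors of the DOCK family, Rac and Cdc42 act on the WAVE and WASP complexes, and these switch on the Arp2/3 complex, which branches actin filaments. Blood cells use their own versions of several of these parts (DOCK2, HEM1, WASP, coronin-1A, L-plastin), while most other cells use close relatives encoded by separate genes. In liver such transcripts are usually ascribed to resident Kupffer cells and to leukocytes that enter the tissue, and loss of several of these genes in humans causes immune deficiency.

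Livers came from wild type C57BL/6J mice kept for 4 weeks on standard chow (4 control animals) or on chow with 1% 3,5-diethoxycarbonyl-1,4-dihydrocollidine (DDC, 4 animals), a compound that blocks heme synthesis and serves as a model of cholestatic injury with biliary fibrosis. The labels call the samples of a group biological replicates and place all 8 in the same batch. Age and sex were not used here. Polyadenylated RNA was sequenced as bulk tissue, to between 61179103 and 81664058 gene counts per library. In such data more cells of a type and more RNA per cell cannot be told apart. Levels are CPM, counts scaled to a common library size, after trimmed mean of M-values (TMM) scaling, which corrects library totals for differences in composition. Controls had factors of 0.792 to 0.816 and DDC libraries of 1.21 to 1.27, so the choice of scaling matters. Scaling by library totals alone shifted the median over all tested genes to 0.70 and that of the 10 genes to 2.89.

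Libraries did not fall evenly within the groups. Controls 1 and 3 resembled each other, with a chi-square per gene of 13.5, and controls 2 and 4 differed by 62.7, whereas pairs across these 2 sets differed by 162 to 220. DDC 1 stood apart from DDC 2, 3 and 4, with 89.6 to 98.9 against 15.9 to 22.5 among the other three. Leaving out either control pair kept each of the 10 genes higher in DDC, and the widest change was in Hcls1, at a log2 fold change of 1.94 when controls 1 and 3 were omitted and of 1.48 when controls 2 and 4 were.

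Markers of blood cells and of other liver cells moved with the groups. All 5 pan-leukocyte markers (Ptprc, Cd53, Laptm5, Cd37 and Cd52) were called higher in DDC (edgeR quasi-likelihood test, Benjamini-Hochberg adjusted p under 0.05, a call made for 56.8% of the genes tested, upward for 30.2% and downward for 26.6%). Their summed level ran from 45.5 to 55.0 CPM in controls and from 244 to 268 CPM in DDC. All 6 monocyte and macrophage markers rose, from a summed 126 to 166 CPM to 1049 to 1140 CPM, and all 4 Kupffer cell markers rose, from 202 to 249 CPM to 615 to 827 CPM. Of the neutrophil markers 4 of 5 rose (summed 23.7 to 30.1 CPM against 81.7 to 117 CPM), with Ly6g at 0 in at least 1 library. T cell markers stayed low, at a summed 3.56 to 4.52 CPM in controls and 8.01 to 12.5 CPM in DDC, with 4 of 5 called higher. B and plasma cell markers went the other way, 4 of 6 being called lower, although their sums overlapped (25.2 to 58.2 CPM against 12.0 to 30.7 CPM). Neither of the 2 natural killer markers tested was called, and Ncr1 was at 0 in at least 1 library. All 4 hepatocyte markers fell, from a summed 114996 to 143316 CPM in controls to 51166 to 65493 CPM in DDC. Stellate cell and fibroblast markers summed to 88.4 to 112 CPM against 252 to 299 CPM, with 2 of 5 called higher. Their log2 fold changes ran from -1.27 to 4.02, so the sum does not stand for each marker. Endothelial markers summed to 93.6 to 107 CPM against 121 to 162 CPM, with 3 of 5 called higher. Mesothelial markers summed to 5.57 to 7.64 CPM against 17.7 to 26.5 CPM, with 2 of 3 called higher and log2 fold changes from -0.47 to 1.90. What each cell type contributed to the levels of the 10 genes was not tested.

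**Figure D1:**
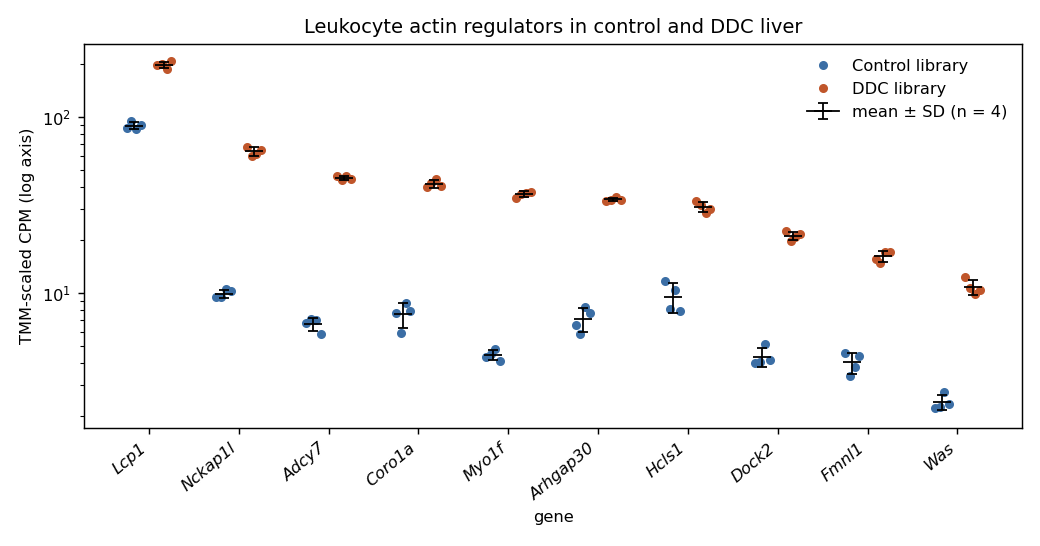
Levels of the 10 genes in each library, as TMM-scaled CPM on a log axis, with controls on the left (blue) and DDC on the right (orange) of each gene. Points are libraries and bars are mean ± SD (n = 4). No control point reaches a DDC point of the same gene, and Lcp1 lies far above the others in both groups.

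The genes that act on filaments directly differed most among themselves. Myo1f, a single-headed class I myosin of myeloid cells that links membrane to actin, measured 4.32, 4.50, 4.77 and 4.11 CPM in controls 1 to 4 and 34.7, 36.3, 37.2 and 37.6 CPM in DDC 1 to 4. It went from a mean of 4.43 ± 0.282 to 36.4 ± 1.26 CPM (SD, n = 4 each), 8.23-fold higher in DDC (log2 fold change 3.04, SE 0.07). This was the widest separation among the 10 genes, and the spread within each group was small beside it. Myo1f (ENSMUSG00000024300) spans chr17:33555707-33607764 on the plus strand of GRCm38, the build used throughout.

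Lcp1 encodes L-plastin, which ties actin filaments into bundles. It measured 86.6, 94.4, 84.9 and 90.1 CPM in controls and 198, 199, 188 and 207 CPM in DDC, or 89.0 ± 4.21 and 198 ± 7.67 CPM (SD, n = 4 each), 2.22-fold higher (log2 fold change 1.15, SE 0.06). Lcp1 was the most abundant of the 10 genes in every library and showed the narrowest separation. The gene (ENSMUSG00000021998, chr14:75131101-75230842, plus strand) overlaps the antisense genes Gm15628 and Gm15629, which had 8 and 5 counts in all.

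Coro1a encodes coronin-1A, a filament-binding protein that regulates the Arp2/3 complex and is needed for the survival and traffic of T cells. It measured 7.68, 5.88, 8.78 and 7.86 CPM in controls and 39.8, 42.3, 44.4 and 40.3 CPM in DDC, 5.52-fold higher (log2 fold change 2.46, SE 0.12). Control 2 held the lowest value and control 3 the highest, and the DDC libraries were closer together. The gene (ENSMUSG00000030707) lies at chr7:126699773-126704816 on the minus strand.

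Among the genes that start new filaments, the blood cell subunit of the WAVE complex had the widest fold. Nckap1l encodes HEM1, the scaffold of the WAVE complex in blood cells, and measured 9.44, 9.42, 10.4 and 10.2 CPM in controls and 67.7, 60.1, 61.5 and 65.0 CPM in DDC. The means were 9.87 ± 0.520 and 63.6 ± 3.41 CPM (SD, n = 4 each), 6.44-fold apart (log2 fold change 2.69, SE 0.07). DDC 1 was the highest DDC library here, and the controls lay close together. Nckap1l (ENSMUSG00000022488) lies at chr15:103453794-103498801 on the plus strand.

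Was encodes WASP, which carries signals from Cdc42 to the Arp2/3 complex and whose loss causes Wiskott-Aldrich syndrome. Its level was 2.21, 2.25, 2.74 and 2.33 CPM in controls and 12.3, 10.6, 9.79 and 10.4 CPM in DDC, 4.52-fold higher (log2 fold change 2.17, SE 0.13). Was had the lowest CPM of the 10 genes in each group, down to 113 counts in a control library, so counting error alone would give a coefficient of variation of 9.07% in controls, beside 10.1% observed. The gene (ENSMUSG00000031165, chrX:8081453-8090498, minus strand) overlaps Gm22083, which had 7 counts in all.

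Fmnl1 encodes a formin, a protein that elongates unbranched filaments. It measured 4.54, 3.37, 3.76 and 4.38 CPM in controls and 15.6, 14.8, 17.0 and 17.0 CPM in DDC, 4.01-fold higher (log2 fold change 2.00, SE 0.12). Hcls1, the blood cell relative of cortactin that steadies Arp2/3 branches, measured 11.7, 8.13, 10.3 and 7.84 CPM in controls and 33.1, 31.7, 28.5 and 29.9 CPM in DDC, 3.24-fold higher (log2 fold change 1.70, SE 0.13). Hcls1 had the widest control spread of the 10 genes, with a coefficient of variation of 19.3%, and its controls 1 and 3 both exceeded controls 2 and 4. Fmnl1 (ENSMUSG00000055805) lies at chr11:103171107-103198901 on the plus strand, where Gm20511 on the other strand had 18 counts, and Hcls1 (ENSMUSG00000022831) at chr16:36934983-36963212 on the plus strand.

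The next genes set the state of small GTPases. Dock2, the exchange factor that activates Rac downstream of chemokine receptors, measured 3.99, 4.05, 5.11 and 4.13 CPM in controls and 22.5, 19.6, 20.7 and 21.5 CPM in DDC, 4.87-fold higher (log2 fold change 2.28, SE 0.10). Control 3 stood above the other controls. Arhgap30, a GTPase-activating protein that switches small GTPases off, measured 6.55, 5.84, 8.31 and 7.68 CPM in controls and 33.2, 33.8, 35.1 and 33.6 CPM in DDC, 4.78-fold higher (log2 fold change 2.26, SE 0.11). An activator of Rac and an inhibitor of small GTPases were thus higher to a similar degree. Dock2 (ENSMUSG00000020143, chr11:34226815-34783892, minus strand) overlaps Insyn2b and 4930403D09Rik on the other strand, with 146 and 370 counts in all, and Arhgap30 (ENSMUSG00000048865) lies at chr1:171388954-171410240 on the plus strand.

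Adcy7 encodes an adenylyl cyclase, an enzyme that makes cyclic AMP, a second messenger that dampens many leukocyte responses. It measured 6.75, 7.09, 6.96 and 5.84 CPM in controls and 46.1, 43.5, 45.9 and 44.5 CPM in DDC, or 6.66 ± 0.564 and 45.0 ± 1.20 CPM (SD, n = 4 each), 6.75-fold higher (log2 fold change 2.76, SE 0.08). Only Myo1f was separated more widely among the 10 genes. Adcy7 (ENSMUSG00000031659) lies at chr8:88272403-88329962 on the plus strand. The sources used here do not say whether reads were assigned by strand, so reads of overlapping genes cannot be told apart, though the overlapping genes named above had few counts.

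Replicates of the 10 genes spread about as widely as those of other genes in controls and less widely in DDC. Their median coefficient of variation was 11.2% in controls (4.73% to 19.3%) and 5.22% in DDC (2.44% to 9.94%), beside 12.0% and 8.61% over the 13495 tested genes with at least 1 CPM in both groups. Levels were not matched. The comparison genes reach down to 1 CPM, where counting error is wider, while the 10 genes averaged 10.8 to 198 CPM in DDC. The narrower spread in DDC is therefore not read as a trait of the 10 genes. Control 3 was the highest control for 6 of the 10 genes and control 2 the lowest for 4. DDC 1 was the highest DDC library for 5 and the lowest for 3, so the library that stood apart overall did not shift the set in 1 direction.

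Levels of different genes can be compared only per length of transcript, for which the authors' FPKM values were used. In controls Lcp1 came first at a mean of 7.29 FPKM, followed by Hcls1 at 2.92 and Coro1a at 2.09, whose libraries overlapped, and by Nckap1l at 1.29. Was (0.773), Adcy7 (0.770), Myo1f (0.689), Arhgap30 (0.639) and Fmnl1 (0.634) could not be ordered, since each overlapped its neighbour, and Dock2 was lowest at 0.292 FPKM. The lower part of the control order was therefore unresolved. In DDC liver the order was Lcp1 (24.9), Coro1a (17.9), Hcls1 (14.6), Nckap1l (12.8), Myo1f (8.76), Adcy7 (7.98), Was (5.40), Arhgap30 (4.72), Fmnl1 (3.93) and Dock2 (2.20), and only Myo1f and Adcy7 overlapped. Coro1a thus stood above Hcls1 without overlap in DDC liver, and Lcp1 held the first place in both groups. FPKM is scaled to library totals, so its ratios of DDC to control are larger than those of CPM, from 3.41 for Lcp1 to 12.7 for Myo1f.

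A ratio of 2 genes within a library does not depend on scaling. Set against Ptprc, which encodes the leukocyte surface phosphatase CD45, 8 of the 10 genes had a higher ratio in every DDC library than in every control, Hcls1 overlapped and Lcp1 was lower. Myo1f to Ptprc was 0.257, 0.310, 0.276 and 0.277 in controls and 0.687, 0.731, 0.710 and 0.725 in DDC. Lcp1 to Ptprc was 5.14, 6.49, 4.90 and 6.07 in controls and 3.91, 4.01, 3.59 and 3.99 in DDC. The ratios rest on the fold changes by which the 10 genes were chosen. The share of all genes separated in such ratios was not computed, so the counts here and below are a description only. As described, the 10 genes did not keep a fixed proportion to CD45 transcripts or to each other.

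The picture changed with the marker chosen. Against Laptm5, a lysosomal protein of blood cells, Myo1f had the higher ratio in every DDC library, 5 genes (Was, Dock2, Fmnl1, Hcls1 and Lcp1) the lower, and 4 overlapped. Nckap1l to Laptm5 averaged 0.494 ± 0.0285 in controls and 0.499 ± 0.00952 in DDC (SD, n = 4 each). Against Csf1r, the receptor for the macrophage growth factor CSF1, Myo1f, Nckap1l and Adcy7 were higher, Lcp1 was lower and 6 overlapped, Was to Csf1r averaging 0.0480 in each group. Against Cd68, a lysosomal glycoprotein of macrophages, 9 of the 10 genes were lower in every DDC library and Myo1f overlapped. The order of the 10 genes by these changes is that of their fold changes, since each marker is common to all of them.

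**Figure D2:**
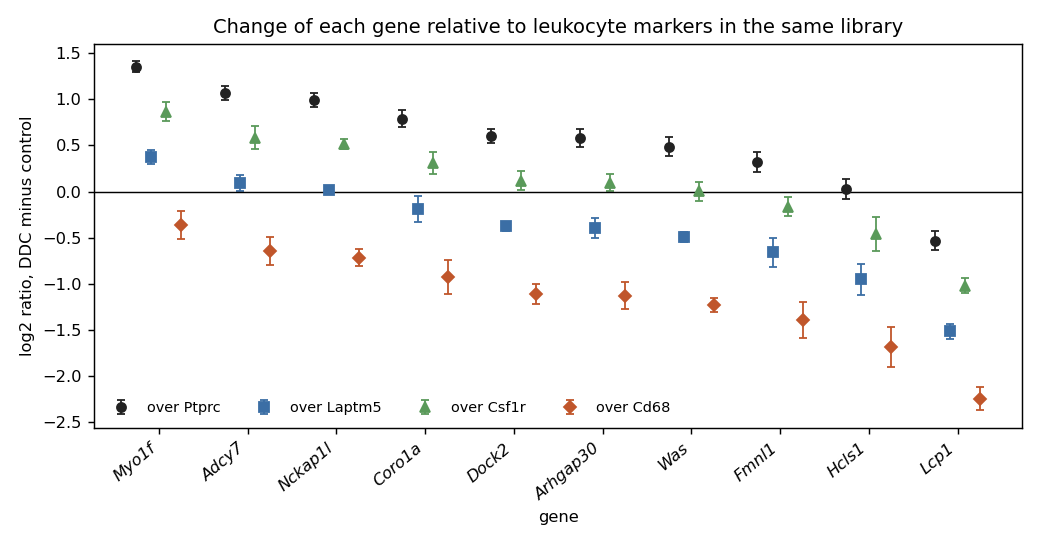
Change of each gene relative to 4 leukocyte markers, as the log2 of its ratio to the marker in DDC minus that in controls. Points are differences of group means on the log2 scale and bars their standard error (n = 4 each). Values over Ptprc lie mostly above 0 and values over Cd68 all lie below 0, from -0.36 for Myo1f to -2.25 for Lcp1.

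Each of the 10 genes has paralogs used outside the blood, many broadly and some in particular tissues, and 22 were compared. Of these 11 rose, 8 fell and 3 were not called (edgeR, adjusted p under 0.05), beside 30.2% higher and 26.6% lower over all genes tested. Their median log2 fold change was 0.35. For 21 of the 22 the value lay below that of the blood cell gene of the same family, which is a description only, since the blood cell genes were chosen by their high values. With library totals alone, or on the FPKM scale, 15 rose and 3 fell, and the values of Nckap1, Wasl, Dock5 and Pls3 changed sign. The 22 were listed with earlier results known. Their directions depend on scaling, while the difference between a gene and its paralog in the same libraries does not.

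Wasl, which encodes N-WASP, fell from 97.4 ± 2.91 to 66.4 ± 2.38 CPM (SD, n = 4 each, log2 fold change -0.55, SE 0.05, edgeR adjusted p = 1.32e-05), although it was 0.07 with library totals alone. Nckap1, the widely expressed WAVE scaffold, had a log2 fold change of -0.21 (edgeR adjusted p = 0.0184), which turned to 0.42 with library totals alone. It lost its call without DDC 3, without DDC 4, without controls 1 and 3 and with no count filter (adjusted p = 0.0824, 0.0687, 0.0681 and 0.0817). Within both families the blood cell gene gained on the broad gene in every DDC library, whichever scaling was used. This too is a description only, since Was and Nckap1l were chosen by their high values. Per length, Was to Wasl went from 0.0629 ± 0.00742 in controls to 0.420 ± 0.0321 in DDC, and Nckap1l to Nckap1 from 0.0725 ± 0.00764 to 0.539 ± 0.0396 (SD, n = 4 each). The broad gene still had more transcript per length in both groups.

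Among class I myosins, Myo1c rose (log2 fold change 1.19) and Myo1d rose (0.39), and Myo1e fell (-0.63) but lost its call with library totals alone. Coro1b and Coro1c rose by 0.32 and 1.42, and the cortactin gene Cttn by 0.69, on the log2 scale. Dock5 fell (-0.38, but 0.24 with library totals alone), and Dock1, which had a log2 fold change of 0.14, was called higher with library totals, on the FPKM scale and without controls 2 and 4 (0.30), and turned to -0.03 without controls 1 and 3. Both formin paralogs rose, Fmnl2 by 1.30 and Fmnl3 by 1.90. Fmnl3 was the paralog closest to its blood cell relative from below, and the ratio of Fmnl1 to Fmnl3 overlapped between groups, at 1.01 ± 0.248 in controls and 1.06 ± 0.119 in DDC (SD, n = 4 each).

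Relatives of Arhgap30 and Adcy7 diverged further. Arhgap31 rose (log2 fold change 0.92), Arhgap32 fell (-1.02), and Arhgap33 rose by 1.20 with overlapping groups and an edgeR adjusted p of 0.0482, a call lost without any of 6 single libraries (adjusted p = 0.0919 to 0.139). Adcy9 and Adcy6 fell (-1.34 and -0.84, the last losing its call with library totals alone). Adcy4 rose by 0.37, a call lost without any of 6 single libraries (adjusted p = 0.0672 to 0.102). Adcy2, at 0.433 CPM in controls, was not called, but was called higher without control 2 (2.44, adjusted p = 0.0357). Adcy7 to Adcy9 in FPKM went from 0.236 ± 0.0222 to 4.12 ± 0.627 (SD, n = 4 each), so the more abundant cyclase of the pair changed from Adcy9 to Adcy7. Such a switch of order in mean FPKM occurred in 6 of the 22 pairs, the others being Myo1f over Myo1d, Fmnl1 over Fmnl3, Arhgap30 over Arhgap32, Lcp1 over Pls3 and Adcy7 over Adcy4. For Fmnl1 and Fmnl3 the means were nearly equal and the ratios overlapped, so that order is not resolved. Paralogs exceeded their blood cell relative in 17 of 22 pairs in controls and in 11 of 22 in DDC. Nothing is read from these switches and counts, because the choice of the blood cell genes used their rise in DDC.

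Plastins were the exception. Pls1, which encodes the plastin of epithelial microvilli, rose more than Lcp1, with a log2 fold change of 3.71 (SE 0.66, edgeR adjusted p = 0.00204) against 1.15. Control 2 had 6.15 CPM of Pls1 where the remaining controls had 0.875 to 1.20, and DDC libraries averaged 30.3 ± 2.08 CPM (SD, n = 4). Without control 2 the log2 fold change was 4.86. Control 2 also had the highest summed cholangiocyte markers of the controls (Epcam, Krt7, Krt19 and Sox9), at 91.5 CPM against 14.1 to 25.1 CPM in the others, and DDC libraries had 84.3 to 138 CPM. How far these moved together was not tested. Pls3, the plastin of many solid tissues, was not called, with a log2 fold change of -0.09, and its sign followed the controls used (0.20 without controls 1 and 3, -0.35 without controls 2 and 4, each called). Lcp1 to Pls1 in FPKM fell below every control ratio in DDC, from 28.2 ± 15.2 to 2.69 ± 0.237 (SD, n = 4 each).

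**Figure D3:**
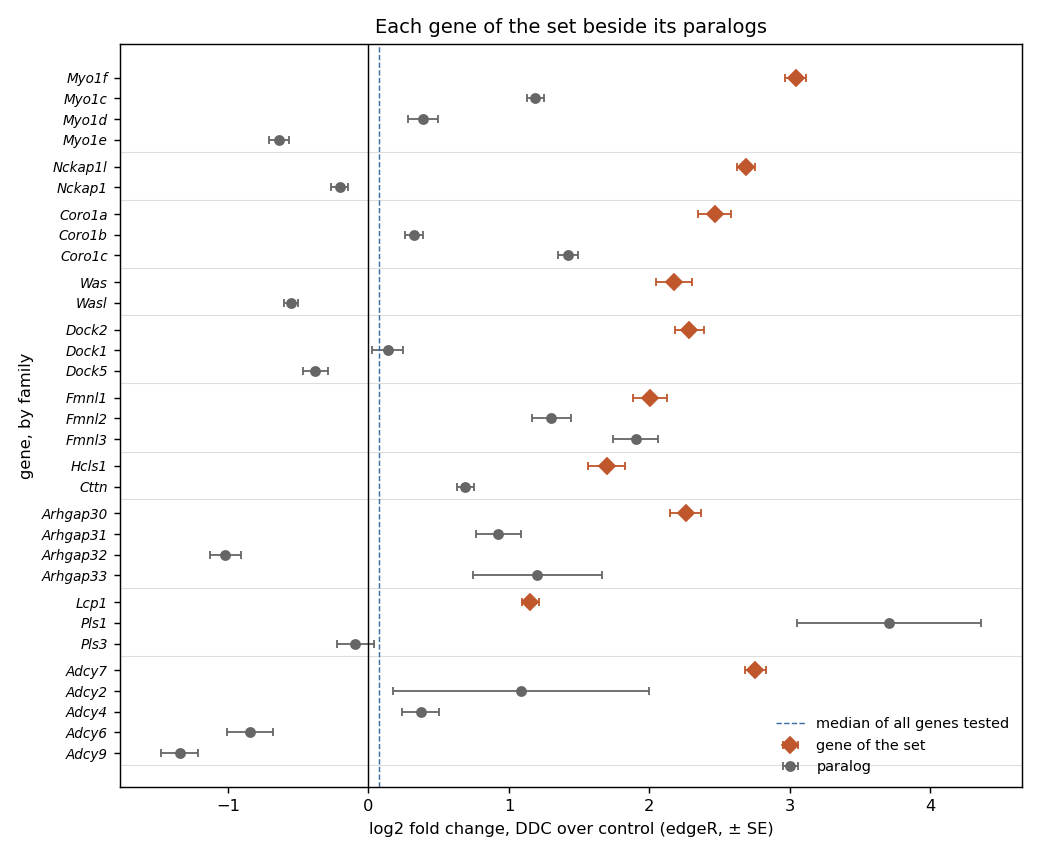
Log2 fold change of DDC over control for each of the 10 genes (orange diamonds) and 21 of the 22 paralogs (grey circles), with standard errors from edgeR. The solid line marks 0 and the dashed line the median of all genes tested, 0.07. Pls1, at 3.71, is the only paralog shown to the right of its orange diamond.

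Start regions of these genes were read from RefSeq (GRCm38.p6), in windows from 250 bases before to 50 bases after a start. Entries matched 9 of the 10 genes (not Nckap1l) and 13 of the 22 paralogs. The number of CpG dinucleotides, which the choice of genes did not use, differed between them. In the window nearest the annotated start the median was 6 for the blood cell genes (5 to 43), with 9 or fewer in 6 of 9, and 32 for the paralogs (2 to 49), with 30 or more in 8 of 13. Over all 32851 windows the median was 7, with 9 or fewer in 56.5% and 30 or more in 11.7%. Those windows include other starts of a gene, and no value for nearest windows alone was computed over all genes. With other starts included, the median was 6 over 13 windows of the blood cell genes and 16 over 19 windows of the paralogs. By either count the blood cell genes resembled all windows and the matched paralogs lay above them, by less when other starts were included. The difference did not hold in every family. In the nearest windows Lcp1 had 19 CpG beside 16 for Pls1 and 6 for Pls3. Myo1f had 5 beside 2 for Myo1c and 16 for Myo1e, and Fmnl1 had 43 beside 49 for Fmnl2 and 30 for Fmnl3. In the other families with entries on both sides the blood cell gene had fewer. The window of Adcy7 lies 10589 bases, and that of Arhgap32 83833 bases, from the annotated start, so these are other starts of those genes.

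Upstream bases are shown for the blood cell and broad members of the WASP and DOCK families, picked because their contrast in CpG is plain. They are also shown for Fmnl1, which had the most CpG of the 9 matched blood cell genes. Each run is the 250 bases before the start, 5′ to 3′ on the strand of the gene, with CpG in capitals. Was lies at chrX:8090492-8090741 (minus strand, 4 CpG), Wasl at chr6:24664996-24665245 (minus, 28), Dock2 at chr11:34783906-34784155 (minus, 4), Dock1 at chr7:134670437-134670686 (plus, 29) and Fmnl1 at chr11:103170888-103171137 (plus, 34), all in GRCm38.p6.
Was: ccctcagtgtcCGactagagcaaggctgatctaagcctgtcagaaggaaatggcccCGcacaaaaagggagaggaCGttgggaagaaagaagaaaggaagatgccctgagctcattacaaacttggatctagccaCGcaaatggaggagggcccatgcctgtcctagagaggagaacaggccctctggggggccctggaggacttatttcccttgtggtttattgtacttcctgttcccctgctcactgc
Wasl: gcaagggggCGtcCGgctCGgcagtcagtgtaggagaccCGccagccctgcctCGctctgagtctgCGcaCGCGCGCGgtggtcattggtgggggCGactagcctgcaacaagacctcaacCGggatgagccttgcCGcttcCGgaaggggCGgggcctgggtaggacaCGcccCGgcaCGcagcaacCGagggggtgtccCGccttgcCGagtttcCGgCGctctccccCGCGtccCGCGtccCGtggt
Dock2: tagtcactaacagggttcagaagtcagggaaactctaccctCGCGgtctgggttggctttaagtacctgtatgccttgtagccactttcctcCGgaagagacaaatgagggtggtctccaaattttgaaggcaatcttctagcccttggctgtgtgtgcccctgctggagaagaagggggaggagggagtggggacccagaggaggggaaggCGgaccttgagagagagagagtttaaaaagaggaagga
Dock1: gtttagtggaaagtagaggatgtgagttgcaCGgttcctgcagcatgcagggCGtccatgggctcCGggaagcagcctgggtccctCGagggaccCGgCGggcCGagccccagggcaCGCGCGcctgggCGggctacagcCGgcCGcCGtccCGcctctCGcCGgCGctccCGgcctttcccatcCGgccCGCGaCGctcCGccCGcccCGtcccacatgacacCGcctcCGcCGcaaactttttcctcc
Fmnl1: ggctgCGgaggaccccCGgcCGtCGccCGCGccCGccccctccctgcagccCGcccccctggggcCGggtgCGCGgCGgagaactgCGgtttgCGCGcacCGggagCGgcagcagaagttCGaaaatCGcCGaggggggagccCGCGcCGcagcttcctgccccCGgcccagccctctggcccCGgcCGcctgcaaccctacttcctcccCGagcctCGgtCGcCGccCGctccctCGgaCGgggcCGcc

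The letters GAGGAA, found in many sites of the ETS family factor PU.1, were searched on both strands. They occurred in 30.8% of the 13 windows of the blood cell genes, in 21.1% of the 19 windows of paralogs and in 28.3% of all windows. TGTGGT, the core of RUNX sites, occurred in 30.8%, 10.5% and 16.8%, or 4 of 13, 2 of 19 and 5506 of 32851 windows. Windows of the same gene count separately and the windows of both gene sets are few, so nothing is read from these shares. Also searched were CCGGAA, found in 15.4%, 21.1% and 14.9%, TATAAA in 7.69%, 0% and 13.6%, and GGGCGG in 46.2%, 68.4% and 35.7%. The Was window holds GAGGAA and TGTGGT, as a description of the sequence only.

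**Figure D4:**
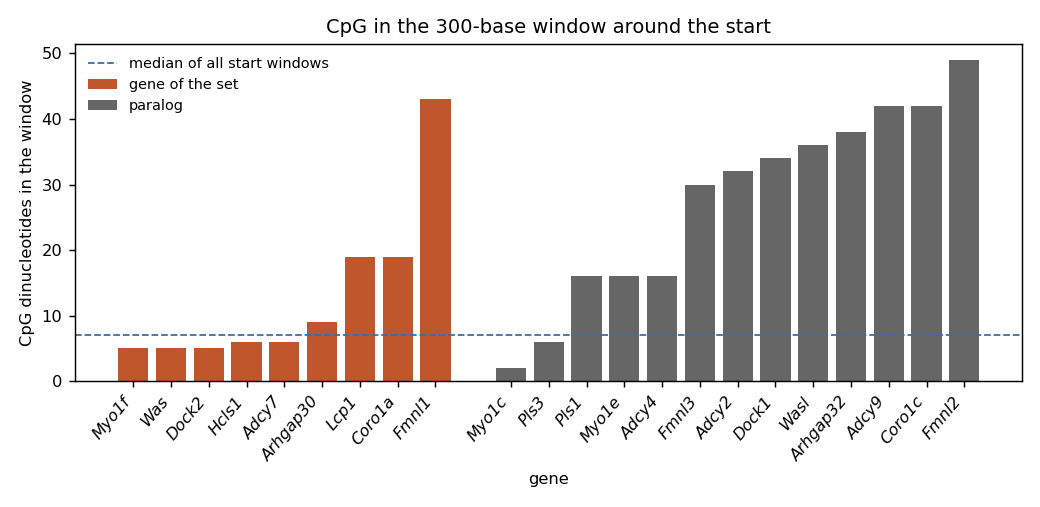
CpG dinucleotides in the 300-base window nearest the annotated start of each gene with a RefSeq entry, for the blood cell genes (orange) and their paralogs (grey). The dashed line is the median of all windows, other starts included, 7. Fmnl1, with 43, is the only orange bar at or above 30, which 8 of the 13 grey bars reach.

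Other blood cell genes of actin control and migration were followed in lists drawn up with earlier results known. Of 36 further leukocyte actin genes 34 rose and 0 fell (edgeR, adjusted p under 0.05), with a median log2 fold change of 1.93. Over all genes tested 30.2% were called higher and 26.6% lower. Arhgap25, a Rac inhibitor, rose from 2.42 ± 0.726 to 24.6 ± 3.26 CPM, Capg, which caps filament ends, from 3.40 ± 0.314 to 34.2 ± 3.55 CPM, and Plek, the pleckstrin of platelets and leukocytes, from 4.16 ± 0.556 to 34.2 ± 1.12 CPM (SD, n = 4 each). Among partners of the 10 genes, Elmo1, which binds DOCK proteins, rose by 2.37, Vav1, a Rac exchange factor, by 2.22 and Wipf1, whose product binds and stabilises WASP, by 1.63 on the log2 scale. The genes not called were Dock8 (log2 fold change 0.06) and Pstpip2 (0.16), which both passed with library totals alone, and Pstpip2 ran from 0.53 without controls 1 and 3 to -0.15 without controls 2 and 4.

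Signals upstream of this machinery followed the same direction. Of 18 genes for leukocyte integrins, phosphoinositide and Rap signalling and tyrosine kinases 17 rose, beside 30.2% of all genes tested. Their median log2 fold change was 2.03. The integrin chains Itgax and Itgam rose by 4.25 and 3.61, their common partner Itgb2 by 2.63, and the kinase gene Fgr by 2.94 on the log2 scale. Rasgrp2, an activator of Rap1, was not called (log2 fold change -0.24, edgeR adjusted p = 0.115), though it was called lower without control 2 (-0.34, adjusted p = 0.0319) and higher with library totals alone (0.38, adjusted p = 0.0181).

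Broadly expressed actin genes moved less. Of 25 such genes 21 rose and 2 fell, with a median log2 fold change of 0.51, and with library totals alone 24 rose and 0 fell. The cytoplasmic actins Actb and Actg1 rose by 1.59 and 2.12, and Tmsb4x, which holds actin monomers, by 2.06 on the log2 scale. Among Arp2/3 subunits Actr3 rose by 0.88 and Arpc5 by 0.62, and Arpc1a fell (-0.36, but 0.26 with library totals alone). By contrast Arpc1b, the blood cell-enriched relative of Arpc1a, rose by 1.32.

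The cyclic AMP pathway around Adcy7 was called about as often as all genes tested (56.8%). Of 12 genes 6 rose and 1 fell, with a median log2 fold change of 0.57, but all 12 were called higher with library totals alone and with either FPKM fit. The prostaglandin E2 receptors Ptger4 and Ptger2, which stimulate cyclases, rose by 1.93 and 1.63 on the log2 scale, to only 3.38 ± 0.920 and 4.62 ± 0.692 CPM (SD, n = 4 each). Of the phosphodiesterases, which break cyclic AMP down, Pde4d rose by 1.41, Pde4b by 0.66 and Pde4a by 0.48. Gnas, which encodes the stimulatory G protein, fell (-0.37, but 0.26 with library totals alone).

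**Figure D5:**
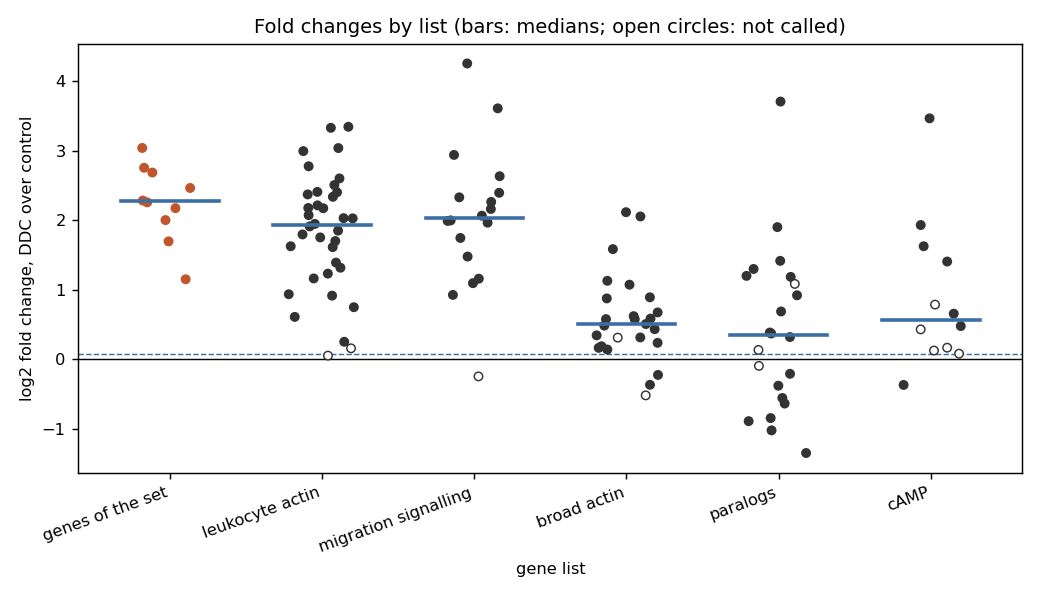
Log2 fold changes of DDC over control for the 10 genes (orange), 4 other lists and the paralogs. Filled circles passed the edgeR threshold, open circles did not, and the 10 genes carry no call. Bars are medians, from 2.27 for the 10 genes to 0.35 for the paralogs, and the dashed line is the median of all genes tested.

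Genes whose profile over the 8 libraries was nearest to the mean of the 10 were found by the root mean square difference of centred log2 values. The nearest were Loxl2 (0.0499), Syk (0.0683), Tnfrsf12a (0.0754), Tubb2b (0.0789), Zfp991 (0.0829), Cd300ld (0.0839), Pld4 (0.0859) and Csf1r (0.0885). Loxl2, a lysyl oxidase of collagen cross-linking, went from 4.29 ± 0.226 to 21.7 ± 1.04 CPM, and Tnfrsf12a, the receptor for TWEAK, from 10.8 ± 0.173 to 52.5 ± 2.39 CPM (SD, n = 4 each). Of the 10 genes themselves Dock2 lay nearest to the mean (0.0678) and Lcp1 farthest (0.516). The neighbours thus include blood cell genes (Syk, Cd300ld, Pld4 and Csf1r) and genes not particular to blood cells.

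The annotation deposited beside the FPKM values ties the 10 genes to shared terms. Actin binding was given to 6 of them (Coro1a, Fmnl1, Hcls1, Lcp1, Myo1f and Was) among 372 genes, and cell migration to 4 (Coro1a, Fmnl1, Lcp1 and Nckap1l) among 247. The Rac1 GTPase cycle listed 4 (Arhgap30, Dock2, Fmnl1 and Nckap1l) among 171 genes, and the chemokine signaling pathway listed Adcy7, Dock2 and Was among 186. No test was made of these counts, since the symbols were chosen for such roles.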

How the data were processed

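Bulk liver RNA from 4 control and 4 DDC-fed mice was analysed. The count table deposited by the authors holds whole-number counts per Ensembl gene, not normalized, per the file headers. The authors' deposited FPKM values divide counts by gene length and library depth. Counts listed in the same table equalled those of the count table. The submitters' processing notes name cutadapt, FastQC, HISAT2, StringTie and DESeq2 without versions, on GRCm38 and mm10, with no order of steps. Coordinates and symbols are those of the deposited table.

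Counts of all 8 libraries were fitted in edgeR 4.0.16 (R 4.3.3) with TMM factors, the filterByExpr filter, quasi-likelihood tests (robust option) and Benjamini-Hochberg adjustment over the 19535 genes tested, two-sided, at 0.05, with no covariate. P-values were read only for genes outside the set of 10. The members and all lists were chosen with earlier results of these data known. Besides the 10 genes, all paralogs and all markers, the rule for naming took up to 3 called genes of each role with the widest fold and at least 1 CPM, the largest called gene against its list's majority, or the most abundant gene where none was called, and the 8 nearest profiles (log2 of TMM CPM plus 0.5). Dock8, Pstpip2, Rasgrp2 and Arpc1b were singled out after their values were seen. Depth ran from 61179103 to 81664058 counts, and coefficients of variation from counts cover counting error only. No library duplicated another, since those of a group differed beyond sampling noise. The fit was tested on simulated data in which 200 genes differed between groups. That setting lacked the wide shift in composition of these libraries, so it cannot decide between scalings.

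Alternatives were DESeq2 1.42.0 size factors and test, library totals alone, no count filter, at least 1 CPM in 4 libraries, voom in limma 3.58.1, limma-trend on log2 FPKM plus 0.1 or 1, each library left out and a replicate block. Omission of controls 1 and 3, or 2 and 4, was added after seeing the data. The single values of a few listed genes are not reported here.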

Additional observations from a re-analysis of the deposited data

Results flagged for a closer look

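Within 214 groups of 4 libraries, 1 library stood far from the other three by Dixon's gap test in 11, and chance alone marks about 1 in 20 groups. Among the 10 genes this was Dock2 in control 3, at 5.11 CPM against 3.99 to 4.13 in the other controls, which is still below every DDC value. Control 2 stood high for Pls1 (6.15 CPM against 0.875 to 1.20), Parvg (2.37 against 1.22 to 1.36) and Pik3r5 (3.04 against 1.98 to 2.13). Control 4 stood high for Arhgap33 (1.59 CPM against 0.834 to 0.960) and control 3 for Cd300ld (8.10 against 6.24 to 6.50). DDC 1 stood high for Pde4d (12.3 CPM against 5.58 to 5.95) and Ptger2 (5.65 against 4.17 to 4.34), and low for Arpc5 (106 against 115 to 116). DDC 3 was low for Zfp991 (6.61 CPM against 7.33 to 7.42) and DDC 4 high for Abi1 (56.3 against 55.4 to 55.5).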

How the results depend on the processing

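For the 10 genes every alternative kept DDC above control. Their median log2 fold change was 2.27, and 2.89 with library totals alone, 2.69 and 1.92 on the log2 FPKM scale with pseudocounts of 0.1 and 1. The called genes of the cyclic AMP list went from 7 to 12 with library totals alone and with each FPKM fit. With library totals alone 11501 genes were called higher and 1750 lower, against 5893 and 5205. With the same scaling the paralogs called went from 11 higher and 8 lower to 15 and 3, the paralog median from 0.35 to 0.97 and the broad actin median from 0.51 to 1.13. The total number of calls in each list other than the cyclic AMP list stayed within 1.5 times. Single genes outside the set of 10 changed sign under library totals alone, FPKM plus 0.1 and FPKM plus 1, in that order, as log2 fold changes: Nckap1 0.415, 0.409 and 0.392, Wasl 0.069, 0.063 and 0.059, Dock5 0.244, 0.237 and 0.175, Pls3 0.529, 0.545 and 0.515, Arpc1a 0.258, 0.258 and 0.246, Gnas 0.257, 0.249 and 0.242, Rasgrp2 0.378, 0.367 and 0.243, and Jchain 0.016, 0.014 and 0.015. These settings leave composition uncorrected. Without controls 1 and 3 Dock1 was -0.027, Pls3 0.195 and Jchain 0.051, and without controls 2 and 4 Pstpip2 was -0.146. The cause was not tested. Over all alternatives and named genes 66 calls were lost, chiefly those of Arhgap33, Adcy4, Rac1 and Cd79a, and 30 were gained, all by other genes.

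The replicate numbers were not treated as pairs. Deviations of same-numbered control and DDC libraries did not move together, with correlations of -0.262, -0.226, 0.028 and -0.083. Such correlations cannot show whether the animals were paired. With a replicate block the called genes numbered 9464 in place of 11098, 18 of the 22 paralogs, 34 of the 36 leukocyte actin genes, 19 of the 25 broad actin genes, 17 of the 18 migration genes and 7 of the 12 cyclic AMP genes were called, and the median of the 10 genes was 2.28. Limits are the 4 animals per group, bulk tissue, and the low counts of Was (down to 113) in controls, which widen its error.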

Other observations

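Other blood-derived cells left weaker traces in the same libraries. Platelet and megakaryocyte markers (Pf4, Ppbp, Itga2b and Gp9) summed to 5.24 to 9.41 CPM in controls and 11.8 to 13.4 CPM in DDC, with 1 of 3 tested called higher and 1 lower. Dendritic cell markers summed to 7.10 to 9.93 CPM in controls and 9.77 to 10.4 CPM in DDC, with 1 of 3 tested called higher. Erythroid markers summed to 5.22 to 6.12 CPM in controls and 2.44 to 3.21 CPM in DDC, with 1 of 2 tested called lower. None of the 3 mast cell and basophil markers passed the filter on low counts, and their sums stayed under 1 CPM in every library. A call was made upward for 30.2% and downward for 26.6% of all genes tested.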
